A study of Mus musculus with 3 samples.

Results

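Isl1 peaks assigned to genes of the cilium and of intraflagellar transport were taken from a genome-wide peak list of mouse cardiac progenitor cells (CPCs). A peak was kept when the symbol of its assigned gene began with Ift, Bbs, Dnah, Tctn, Rsph, Nphp or Cep followed by a digit. This rule gave 39 of the 14082 distinct peaks, assigned to 31 of the 9313 gene symbols in the list. Of the 7 families, 6 had a peak and Tctn had none. Among the 31 genes, 25 had 1 peak, 4 had 2 peaks and 2 had 3 peaks. Genes of motile cilia (Dnah and Rsph) made up 10 peaks at 7 genes, and all other families together made up 29 peaks at 24 genes.

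A cilium is a microtubule-based projection that grows from a basal body, the modified mother centriole. Intraflagellar transport (IFT) particles carry material along it, the BBSome sorts membrane cargo, and the transition zone (Tctn and Nphp proteins among others) gates entry at the base. Axonemal dynein heavy chains (Dnah) and radial spoke proteins (Rsph) power and coordinate beating and belong to motile cilia, whereas many cell types form a single primary cilium, which relays Hedgehog signals. Motile cilia of the embryonic node set the left-right axis that the heart follows. Cep is a naming class for centrosomal proteins, and only some of them act at the cilium.

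Isl1, a LIM-homeodomain transcription factor of the second heart field, was mapped by chromatin immunoprecipitation and sequencing (ChIP-Seq), which recovers and sequences the DNA fragments that an antibody pulls down with the factor. There were 2 Isl1 ChIP replicates and 1 input sample, all from ESC-derived CPCs at day 5 of differentiation, made from 1 mouse embryonic stem (ES) line, E14 Tg(Nkx2-5-EmGFP), which reports Nkx2-5 with a fluorescent protein. All samples shared the same directed differentiation, in which BMP4, Activin A, VEGF, bFGF, FGF10 and ascorbic acid were supplied in turn to cells first kept on feeder fibroblasts. The antibody was the anti-Isl1 monoclonal of the Developmental Studies Hybridoma Bank (the input had none), and the labels name no genetic change of Isl1, no other treatment group and no sorting of the cells. One deposited list combined both replicates and gave the position of each peak, its signed distance to the closest transcription start site (TSS) and a gene symbol, with no score and no read number. The depth of the libraries is therefore unknown here, no replicate error can be given, no test between groups was possible, and a gene without a listed peak cannot be called unbound. The intervals given with shares are Wilson 95% intervals and cover counting error only. For a count of 0, the share that 3 counts would give is stated as the limit the count allows, which is lower than the Wilson bound.

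Of the 39 peaks, 18 lay at promoters and 15 in repeated sequence, often in introns. These 15 were far from the TSS they were assigned to, though not all were far from every annotated TSS. Examples of both kinds are shown first. Stretches of 120 bases (mm9, with CpG dinucleotides in capitals) from peaks within 1 kb of the TSS are given for an axonemal dynein, a radial spoke gene and 3 centrosomal genes.
Dnah9 chr11:65981439-65981558 (plus strand): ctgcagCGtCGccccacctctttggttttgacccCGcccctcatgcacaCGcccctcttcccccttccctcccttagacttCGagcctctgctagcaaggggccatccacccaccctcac
Rsph6a chr7:19639299-19639418 (plus strand): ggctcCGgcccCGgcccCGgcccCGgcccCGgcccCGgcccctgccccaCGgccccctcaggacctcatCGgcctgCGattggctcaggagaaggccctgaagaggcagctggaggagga
Cep83 chr10:94151415-94151534 (plus strand): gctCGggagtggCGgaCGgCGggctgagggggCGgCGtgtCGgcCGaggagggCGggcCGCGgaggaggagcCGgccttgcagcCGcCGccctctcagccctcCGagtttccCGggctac
Cep70 chr9:99143767-99143886 (plus strand): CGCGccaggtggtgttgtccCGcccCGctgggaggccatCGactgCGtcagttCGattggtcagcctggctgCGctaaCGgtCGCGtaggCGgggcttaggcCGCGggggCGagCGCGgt
Cep350 chr1:157820197-157820316 (plus strand): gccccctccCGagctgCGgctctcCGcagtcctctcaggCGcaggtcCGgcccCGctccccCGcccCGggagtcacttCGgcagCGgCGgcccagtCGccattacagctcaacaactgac
These stretches held 5 CpG dinucleotides at Dnah9, 9 at Rsph6a, 16 at Cep83, 17 at Cep70 and 12 at Cep350. The Rsph6a stretch lies in a coding exon of the neighbouring gene Sympk and is built in part from a short ggcccc repeat. The Dnah9 stretch lies in an intron of its gene, and the 3 Cep stretches lie outside annotated genes.

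Among the peaks far from a TSS, 5 at different genes held the same repeated sequence. The 120 bases below come from inside the peaks of Dnah11, Dnah5, Dnah7c, Bbs9 and Ift57, with bases that differ from the Dnah11 copy in capitals.
Dnah11 chr12:119376385-119376504 (plus strand): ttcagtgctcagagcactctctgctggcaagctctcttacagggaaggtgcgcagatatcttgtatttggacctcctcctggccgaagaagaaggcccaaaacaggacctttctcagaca
Dnah5 chr15:28188313-28188432 (plus strand): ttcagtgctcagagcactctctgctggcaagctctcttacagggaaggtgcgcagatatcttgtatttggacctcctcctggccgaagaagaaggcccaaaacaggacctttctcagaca
Dnah7c chr1:46505636-46505755 (plus strand): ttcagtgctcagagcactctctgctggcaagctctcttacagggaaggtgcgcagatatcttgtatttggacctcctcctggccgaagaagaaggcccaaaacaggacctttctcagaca
Bbs9 chr9:22535625-22535744 (plus strand): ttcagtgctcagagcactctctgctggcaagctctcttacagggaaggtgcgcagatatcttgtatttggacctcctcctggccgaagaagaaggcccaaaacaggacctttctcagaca
Ift57 chr16:49467165-49467284 (minus strand): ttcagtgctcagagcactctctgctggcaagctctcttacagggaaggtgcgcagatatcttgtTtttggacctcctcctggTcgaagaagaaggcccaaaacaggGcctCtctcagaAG
Dnah11, Dnah5, Dnah7c and Bbs9 were identical over all 120 bases, and the Ift57 copy differed at 6 of them. A second element was common to another Dnah7c peak and the Cep162 peak, again with differences in capitals.
Dnah7c chr1:46370665-46370784 (plus strand): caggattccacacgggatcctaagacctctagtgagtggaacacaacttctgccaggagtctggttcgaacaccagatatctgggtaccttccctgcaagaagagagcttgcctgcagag
Cep162 chr9:87172436-87172555 (plus strand): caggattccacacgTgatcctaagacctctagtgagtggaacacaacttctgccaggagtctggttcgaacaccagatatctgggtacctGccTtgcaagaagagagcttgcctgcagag
These copies differed at 3 of 120 bases. The third sequence type was a simple repeat of ctc and ctg units, shown for Dnah10, which also lies under the Cep128 peak.
Dnah10 chr5:125259703-125259822 (plus strand): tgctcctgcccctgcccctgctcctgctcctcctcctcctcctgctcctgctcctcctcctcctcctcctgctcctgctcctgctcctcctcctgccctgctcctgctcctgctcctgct

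Motile cilium genes had 10 peaks, of which only 2, at Dnah9 and Rsph6a, lay within 1 kb of the TSS. Dnah9, a heavy chain of the outer dynein arm, had 1 peak of 711 bp at chr11:65981404-65982115, 294 bp downstream of the TSS and centred in its own coding exon. Its central 300 bp had a GC content of 69.3%. Rsph6a, a protein of the radial spoke head, had 1 peak of 769 bp at chr7:19638974-19639743, 678 bp upstream of its TSS and inside a coding exon of Sympk, with a GC content of 70.0%. No other Dnah or Rsph peak lay closer than 22.3 kb.

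The remaining 8 motile peaks were all beyond 10 kb and belonged to 5 dynein heavy chain genes. Dnah11, the outer-arm chain mutated in the classical inversus viscerum mouse, had a peak of 712 bp in its own intron at chr12:119376212-119376924, 60.9 kb from the TSS. Dnah5, another outer-arm chain, had a peak of 953 bp in its own intron at chr15:28188312-28189265, 55.3 kb from the TSS, and an intergenic peak of 605 bp at chr15:28637423-28638028, which was 504 kb away and the most distant of all members. Dnah10, an inner-arm chain, had a peak of 1196 bp in its intron at chr5:125259314-125260510, 54.5 kb from the TSS. The closest annotated TSS was 12197 bp from that peak. These peaks were distal, and all but the most distant lay in introns of their own genes.

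Dnah7b and Dnah7c, neighbouring inner-arm paralogs on chromosome 1, had 4 peaks between them. The Dnah7b peak at chr1:46145611-46146219 was 608 bp wide, lay 22.3 kb inside the gene and had the highest GC content of all members, 83.7%. Dnah7c had the widest motile peak, 1650 bp at chr1:46505430-46507080, 23.9 kb from the TSS. Its 2 other peaks, of 470 bp at chr1:46345697-46346167 and 941 bp at chr1:46370085-46371026, were listed 136 kb and 112 kb upstream of Dnah7c, but both midpoints lay in an intron of Dnah7b. The assignment of these peaks between the paralogs is uncertain, since the annotated model of Dnah7c spans only 17.2 kb and starts elsewhere than the TSS used in the list.

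Intraflagellar transport genes had 2 peaks, both far from the assigned TSS and in sequence that occurs more than once in the genome, though to unlike degrees. Ift88, a core subunit of the anterograde IFT-B complex, had a peak of 751 bp in its own intron at chr14:58067819-58068570, 25.3 kb from the TSS. The closest annotated TSS of a protein-coding gene was 4915 bp from that peak. Words of 31 bases from the centre of the Ift88 peak occurred a median of 3 times in the genome, and words of 75 bases 1 time. For Ift57 these medians were 876.5 and 2. Ift57, a peripheral subunit of the same complex, had the wider peak, 948 bp at chr16:49466392-49467340, 233 kb upstream in intergenic DNA. None of the 14 annotated Ift genes had an assigned peak within 1 kb (0.0%, interval 0.0 to 21.5%), beside 23.2% of all protein-coding genes.

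Bbs genes had 3 peaks, of which 1 was at a promoter. Bbs12, a chaperonin-like protein needed to assemble the BBSome, had a peak of 697 bp at chr3:37211163-37211860, 35 bp from the TSS, which Cetn4 flanks on the opposite strand. Bbs10, a protein of the same chaperonin-like kind, had an intergenic peak 17.8 kb away. Bbs9, a BBSome subunit, had the widest Bbs peak, 1251 bp at chr9:22535435-22536686 in its own intron, 256 kb from the TSS.

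**Figure D1:**
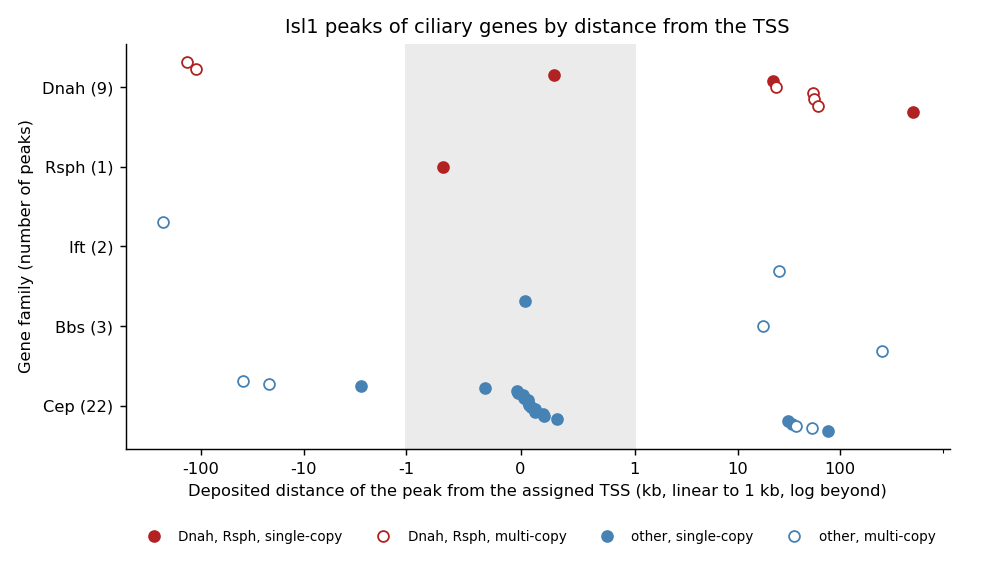
Signed distance in kb of each of 37 peaks from its assigned TSS (x axis, linear to 1 kb and logarithmic beyond) by gene family (y axis), red for Dnah and Rsph and blue for the other families, with open circles for multi-copy sequence. The shaded band marks 1 kb on either side of the TSS and holds 14 of the Cep peaks and no open circle.

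Cep genes supplied most promoter peaks, with 14 of their 22 peaks within 1 kb. The closest to the TSS was at Cep85, 21 bp away, and the farthest of the 14 was at Cep85l, 321 bp away. Cep83, which builds the distal appendages that dock the basal body, had a peak of 1041 bp at chr10:94150989-94152030, 26 bp upstream of the TSS. Genes for centriole duplication and maturation included Cep63, with a peak of 1112 bp 33 bp from the TSS, Cep192, with one of 614 bp at 126 bp, and Cep295, with one of 603 bp at 76 bp. Cep76, which restrains centriole reduplication, had one of 1092 bp at 68 bp.

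The other promoter peaks of the class were at Cep131, a centriolar satellite protein (867 bp wide, 91 bp from the TSS), Cep68, a linker between centrosomes (1295 bp wide, 61 bp), and Cep350, which anchors microtubules (1231 bp wide, 129 bp). Cep70 had a peak of 932 bp at 35 bp, Cep112 one of 986 bp at 207 bp, and Cep57l1 one of 954 bp at 312 bp. Cep170b had the widest peak outside the motile genes, 1544 bp at chr12:113959810-113961354, 197 bp from the TSS and with a GC content of 81.7%. The peak of Cep85l, 929 bp wide, was close to the TSS of the list but 30401 bp from the closest annotated TSS of a protein-coding gene in the mm9 annotation used here.

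Cep peaks beyond 1 kb numbered 8 and were of mixed kind. The Cep135 peak, at a gene of centriole assembly, was listed 2.74 kb upstream but lay 276 bp from an annotated Cep135 TSS, so it counts as beyond 1 kb only by the deposited distance. Both distal Cep76 peaks, 30.7 kb and 34.3 kb from its TSS, lay in Spire1, the nearer one 175 bp from an annotated Spire1 TSS. The Cep164 peak, at a gene of the distal appendages, was 75.6 kb from the TSS in a coding exon of Dscaml1. The remaining 4 peaks, second peaks of Cep192 and Cep85l (36.9 kb and 39.0 kb away) and single peaks of Cep128 and Cep162 (53 kb and 21.9 kb away), lay in repeated sequence. By the annotation, the Cep128 peak and the second Cep192 peak were closer to a TSS, 1955 bp and 4508 bp away.

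Counted over annotated protein-coding genes, the share with an assigned peak was close to that of all genes. Of the 88 genes whose symbols fit the rule, 31 had a peak (35.2%, interval 26.1 to 45.6%), beside 37.5% of all 21896 protein-coding genes. For all genes, older symbols of the list were brought to present ones, which was not done for the 88. Cep43, listed as Fgfr1op with a peak within 1 kb, therefore counted among the 88 as a gene without a peak. Motile genes had 7 of 22 (31.8%, interval 16.4 to 52.7%) and the other families 24 of 66 (36.4%, interval 25.8 to 48.4%). With the peak required within 1 kb, 18 of 88 genes remained (20.5%, interval 13.3 to 30%), beside 23.2% of all genes. By this count the motile genes had 2 of 22 (9.09%, interval 2.53 to 27.8%) and the others 16 of 66 (24.2%, interval 15.5 to 35.8%), with overlapping intervals.

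By family, Cep genes supplied most genes with a peak. They had a peak in 18 of 38 genes (47.4%, interval 32.5 to 62.7%) and a promoter peak in 14 (36.8%, interval 23.4 to 52.7%). Dnah genes had a peak in 6 of 15 (40.0%) and a promoter peak in 1. Of the Rsph genes 1 of 7 had a peak, of the Ift genes 2 of 14, of the Bbs genes 3 of 8 and of the Tctn genes 0 of 3. Without Cep, the other families had a peak in 6 of 28 genes (21.4%, interval 10.2 to 39.5%). They had a promoter peak in 2 (7.14%, interval 1.98 to 22.6%), beside 9.09% of the motile genes. Among all protein-coding genes the shares were 37.5% with a peak and 23.2% with a promoter peak. The promoter interval lay just above 23.2% for Cep and just below it for the other families without Cep. By the deposited assignment, the 24.2% of the other families together joined a higher share at Cep with a lower one elsewhere. Both bounds missed 23.2% only narrowly, so this split rests on few genes. By annotated TSSs, Ift46, Cep135, Cep170, Cep43 and Cep57 gained a promoter peak and Cep85l lost its own, as described below.

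**Figure D2:**
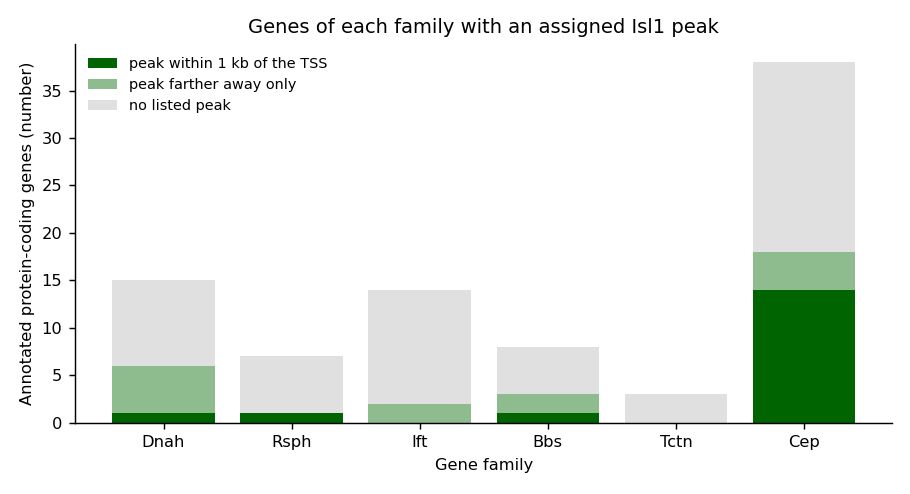
Number of annotated protein-coding genes (y axis) in each of 6 families (x axis), split into genes with a peak within 1 kb of the TSS (dark), genes with a peak only farther away (light) and genes with no listed peak (grey). The Cep bar holds 14 genes with a promoter peak, and the Dnah bar holds 1 with a promoter peak and 5 with distal peaks only.

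By the deposited distances, within 1 kb lay 2 of 10 motile peaks (20.0%, interval 5.67 to 51%) and 16 of 29 other peaks (55.2%, interval 37.5 to 71.6%), beside 38.5% of all peaks. The median distance was 54.9 kb for motile peaks, 0.316 kb for the others and 11.6 kb for all peaks. The intervals of the shares overlap. Among single-copy peaks alone, 2 of 4 motile peaks (50.0%, interval 15 to 85%) and 16 of 20 other peaks (80.0%, interval 58.4 to 91.9%) lay within 1 kb, and without Cep genes the share of the other families was 2 of 7 (28.6%, interval 8.22 to 64.1%). The median width was 740.5 bp for motile peaks (order-statistic 95% interval 605 to 1196 bp) and 929 bp for the others (697 to 1041 bp), beside 947 bp for all peaks. Widths of the groups could not be told apart at these numbers.

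Gene length differed between the families beside these distances. In the mm9 annotation Dnah genes spanned a median of 172 kb and the 22 motile genes together 91.3 kb, compared with 40.6 kb for 62 other genes with an annotated model and 15.5 kb for all protein-coding genes. The 7 motile genes with a peak spanned a median of 268 kb and the 15 without a peak 63.5 kb. Families were mixed in this split, since 6 of 15 Dnah genes but 1 of 7 Rsph genes had a peak. Some Dnah models were short, namely Dnah7a (18.5 kb) and Dnah14 (30.7 kb) without a peak and Dnah7c (17.2 kb) with peaks. Among the other families the medians were 57.5 kb for the 24 genes with a peak and 31.4 kb for the 38 without. Of the 10 motile peaks, 5 had their midpoint inside the assigned gene, and of all 39 members, 21 did. The part of gene length in the counts was not tested.

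Copy number of the sequence was measured as the median number of times that the 31-base words of the central 200 bp of a peak occur in the genome, and a median of at least 2 was called multi-copy. By this measure 15 of 39 members were multi-copy (38.5%, interval 24.9 to 54.1%), beside 46.5% of all peaks. They were 6 of 10 motile peaks (60.0%, interval 31.3 to 83.2%) and 9 of 29 others (31%, interval 17.3 to 49.2%). None of the 18 members within 1 kb was multi-copy, which allows a share of up to 16.7%, beside 2.57% of all peaks within 1 kb. Beyond 10 kb, 15 of 20 members were multi-copy, beside 81.2% of all such peaks. Members therefore followed the split by distance that held over the whole list.

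Among motile peaks the median copy number was 2550 at the widest Dnah7c peak, 1772 at Dnah11, 1087 at the intronic Dnah5 peak, 372 and 9 at the other Dnah7c peaks, and 117 at Dnah10. Only Dnah9, Rsph6a, Dnah7b and the distant Dnah5 peak were single-copy. In the other families the copy number was 18420 at the distal Cep85l peak, 2162.5 at Bbs10, 1687.5 at Cep162, 876.5 at Ift57, 437.5 at Bbs9 and 3 at Ift88. The aligner's default placement of reads that fit several positions bears on these 15 peaks, and its part was not tested.

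**Figure D3:**
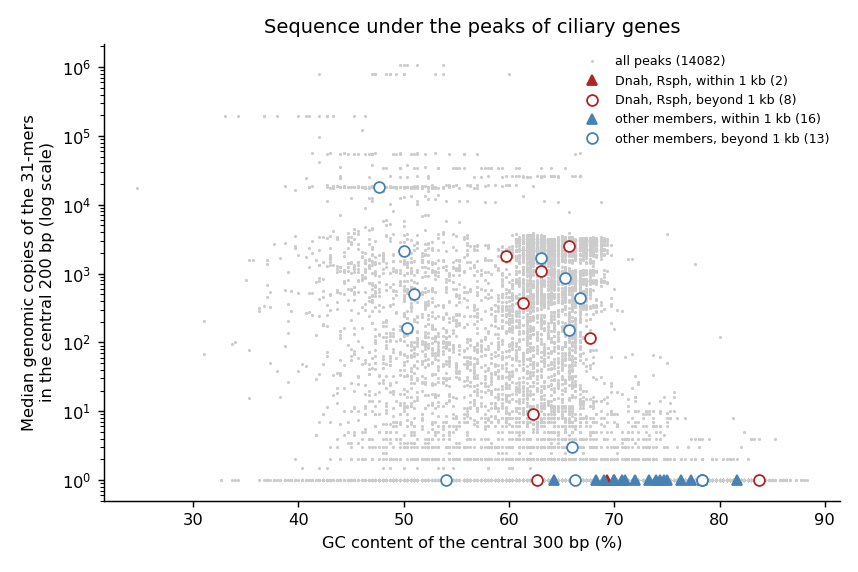
Median genomic copy number of the 31-base words in the central 200 bp (y axis, log scale) against the GC content in percent of the central 300 bp (x axis), with all 14082 peaks in grey, Dnah and Rsph peaks in red and the other members in blue. Filled triangles, the 18 members within 1 kb, all sit at a copy number of 1 and at a GC content of 64.3 to 81.7%, while 15 of the 21 open circles lie above 1.

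The members also shared sequence with each other. Of the 741 pairs of member peaks, 20 had at least 1 word of 31 bases in common, and 13 of the 15 multi-copy peaks took part in such a pair. Dnah7c (23.9 kb) and Bbs9 shared 596 words, Dnah11 and Dnah7c 483, Dnah11 and Bbs9 425, Dnah5 and Dnah7c 354, and Dnah11 and Dnah5 337. Ift57 shared 70 words with Dnah11, Dnah7c and Bbs9 and 34 with Dnah5. The first set of sequences printed above is common to these 5 peaks. The second Dnah7c peak (112 kb upstream) and Cep162 shared 255 words, and Dnah10 and Cep128 shared 41. These 5, 2 and 2 peaks are therefore not independent examples of sequence at ciliary genes. Sharing was counted among members only, so whether it is usual for multi-copy peaks of the list is not known here.

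**Figure D4:**
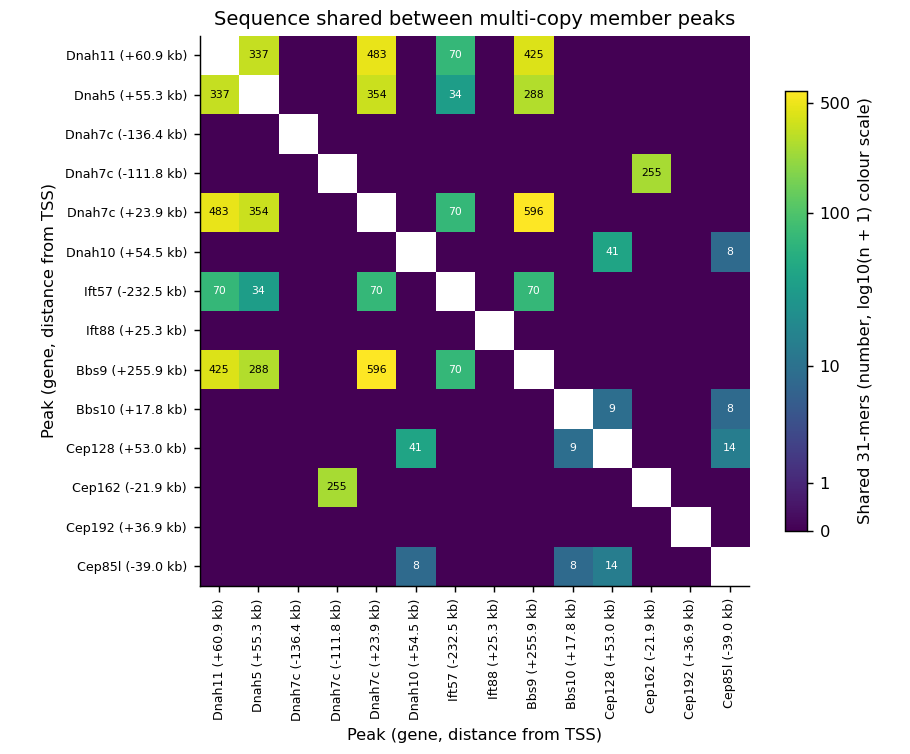
Number of 31-base words shared by each pair of 14 multi-copy members (colour, log10 of the number plus 1, with the number printed in each cell that is not 0). Rows and columns give the gene and the distance of the peak from its TSS. Dnah11, Dnah5, Dnah7c at 23.9 kb, Bbs9 and Ift57 form 1 set with 34 to 596 shared words.

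In base composition, promoter members were close to all promoter peaks. The median GC content of the central 300 bp was 72.7% for the 18 members within 1 kb (range 64.3 to 81.7%) and 73.7% for all peaks within 1 kb. Their ratio of observed to expected CpG had a median of 0.87, beside 0.92. The motile promoters, Rsph6a at 0.47 and Dnah9 at 0.75, were below the median, and Cep85 at 1.07 was highest. Members beyond 1 kb had a median GC content of 63%, the same as all peaks beyond 1 kb, and a median CpG ratio of 0.53, beside 0.55. The median width of promoter members was 930.5 bp, beside 1050 bp.

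Several promoter peaks had TSSs of genes on opposite strands close by. Of the 18, 4 had annotated TSSs of at least 2 genes on both strands within 1 kb of the midpoint (22.2%, interval 9 to 45.2%), beside 8.09% of all peaks within 1 kb. They were Bbs12 with Cetn4 and Fgf2, Cep57l1 with Sesn1, Cep63 with Anapc13 and Cep76 with Psmg2. Anapc13 is a subunit of the anaphase-promoting complex, Psmg2 helps to assemble the proteasome, Cetn4 is a centrin and Fgf2 is a fibroblast growth factor. From the peak position it cannot be told which of these genes it concerns.

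Assignment to the closest TSS also left ciliary promoters under other names. Looking for peaks within 1 kb of an annotated TSS, whichever gene they were listed for, gained 5 of the other genes and lost 1. Those gained were Cep135, described above, and 4 genes with no peak listed under their present symbol, which were named after their values had been seen. The gene lost was Cep85l. Ift46, an IFT-B subunit, had a peak of 892 bp at chr9:44575239-44576131, 305 bp from its TSS and listed for Arcn1. Cep170 had one of 1142 bp at 139 bp, listed for Sdccag8, and Cep57 had one of 813 bp at 781 bp, listed for Fam76b. Cep43, listed under its older symbol Fgfr1op, had one of 929 bp at 6 bp. Over the 62 other genes with an mm9 gene model, 20 had a peak by this count (32.3%, interval 22.0 to 44.6%) and 16 by the deposited assignment (25.8%, interval 16.6 to 37.9%), while the motile share was 9.09% by both. This count was chosen after seeing the data and was not made over all genes. The rise can therefore not be set beside a background.

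Sequence motifs of ciliary gene control were sought on both strands. RFX factors, the main regulators of ciliary genes, bind the X-box, a pair of mirrored sites of which GTTGCC is 1 form, so the searches for both can overlap. In the central 300 bp, GTTGCC was found in 0 of 39 members, which allows a share of up to 7.69%, beside 5.98% of all peaks. For the 18 members within 1 kb the count of 0 allows up to 16.7%, beside 9.58% of all peaks within 1 kb. The full X-box, the forkhead letters TGTTTAC and the LIM-homeodomain letters CTAATGG or CTAATTG were also found in 0 of 39 members, beside 0.0497%, 0.682% and 0.753% of all peaks. At 39 peaks, shares of this size could not be told from 0.

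Over the whole width of the peaks, GTTGCC occurred in 9 members (23.1%, interval 12.6 to 38.3%), beside 21.9% of all peaks. They included Dnah9, the distant Dnah5 peak, Cep112, Cep135, Cep170b, Cep192, Cep70 and Cep83. A full X-box occurred in 1 member, Cep135, beside 0.227% of all peaks, and is shown here in capitals with 30 bases of sequence in all, in the untranslated region of the gene 203 bp from the peak midpoint. It includes the GTTGCC match of that peak on the minus strand.
Cep135 chr5:77017784-77017813 (plus strand): tccggtccGTTACCGGGGCAACggcggcgc
The forkhead letters occurred in 5 members (12.8%, interval 5.60 to 26.7%), beside 4.27% of all peaks, at Cep128, Cep131, Cep57l1 and 2 Cep76 peaks. The LIM-homeodomain letters occurred in 3 (7.69%, interval 2.65 to 20.3%), beside 5.00%, at Dnah11, Cep192 and Cep350. A match describes these letters only.

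Ciliary genes that the symbol rule does not reach were counted from 7 lists with 133 genes in all. Of these, 50 had a peak (37.6%, interval 29.8 to 46.1%) and 27 had one within 1 kb (20.3%, interval 14.3 to 27.9%), shares near the 37.5% and 23.2% of all genes. For the motile axoneme and dynein assembly, 9 of 31 genes had a peak and 2 had a promoter peak (6.45%, interval 1.79 to 20.7%), Dnaaf5, a dynein assembly factor, and Drc1, of the nexin-dynein regulatory complex. For further IFT subunits and motors, 7 of 20 had a peak and 2 had one within 1 kb, the kinesin motors Kif3b and Kif17.

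Both lists for the ciliary base held genes with a promoter peak. In the list for the transition zone and inversin compartment, 8 of 22 genes had a peak and 7 had one within 1 kb (31.8%, interval 16.4 to 52.7%), namely Tmem17, Tmem237, Ahi1, Iqcb1, Anks6, Glis2 and Sdccag8. Among them, Glis2 encodes a transcription factor and not a structural part of the ciliary base. The Sdccag8 peak is the one that also lies at the Cep170 TSS. For the basal body and centriole, 6 of 22 had a peak and 5 had one within 1 kb (22.7%), namely Odf2, Ttbk2, Ninl, Nin and Poc1b. Among BBSome and cilium targeting genes, 7 of 14 had a peak and 3 had one within 1 kb (21.4%), namely Rab3ip, Pde6d and Unc119. For the lists of the ciliary base and of the BBSome and cilium targeting, the intervals include the share of all genes. The promoter interval of the motile axoneme list (1.79 to 20.7%) lay below 23.2%. That of the list named transcriptional regulators of ciliated cells (25.4 to 74.6%) lay above it.

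**Figure D5:**
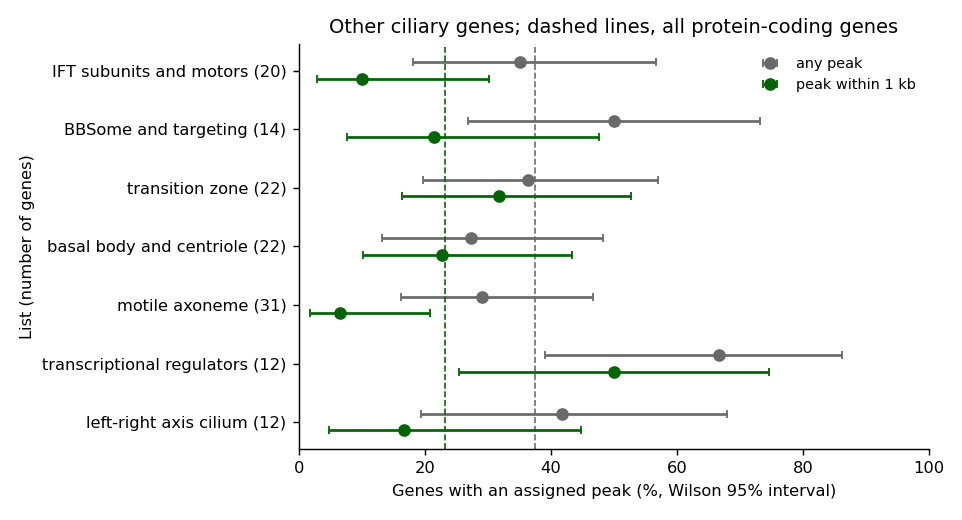
Share in percent (x axis) of the genes of 7 lists (y axis, number of genes in parentheses) with any assigned peak (grey) and with a peak within 1 kb (green), with Wilson 95% intervals; dashed lines mark all protein-coding genes, at 37.5% and 23.2%. The list named transcriptional regulators lies to the right of both lines, at 66.7% and 50.0%, and the motile axoneme list is lowest for promoter peaks, at 6.45%.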

How the data were processed

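ChIP-Seq of Isl1 in CPCs at day 5 (2 replicates and 1 input) was analysed from 1 deposited list. The authors aligned reads to mm9 with bowtie2 at default settings, removed duplicates with Picard 1.136, called peaks with MACS14 without a fragment model, dropped blacklisted regions, kept regions common to both replicates with bedtools 2.15 and assigned the closest TSS with HOMER. The deposited values are other than a signal: positions and signed distances in bp. Columns of other samples numbered 0. The list has 14165 lines and does not say whether starts count from 0 or 1. They are printed as deposited.

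Distinct lines were used, with Python 3.11.15, numpy 2.4.6, pandas 2.3.3, scipy 1.17.1 and numba 0.67.0. Gene models were GENCODE vM1 of NCBIM37 (mm9), and 0 peaks ran past a chromosome end. Protein-coding genes and older symbols came from a RefSeq table of a later build, used for names only, and 4 Cep genes had no name in the mm9 annotation. The listed distance was within 2 bp of the closest annotated TSS for 15 members and 32.3% of all peaks. Scripts were tested on simulated data. Members, families and lists were chosen with earlier results of these data known, the lists from general knowledge, and 1 listed name was unmatched. Sets of peaks with at least 30 shared words were formed after seeing the data. Genes were named if they had a peak within 1 kb, if they were Dnah or Rsph genes with any peak, if they had 2 or more peaks or if they had the widest peak of their family, and others to account for all members. Positions of 2 genes on a chromosome whose sequence is not shown are given by distance only. Results for some genes are not reported here, although the counts include them.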

Additional observations from a re-analysis of the deposited data

How the results depend on the processing

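Of 57 alternative values over 11 results, 40 moved by less than the counting interval or 1.5 times. With single-copy peaks only, 24 members remained, the share of peaks within 1 kb was 50.0% for motile and 80.0% for other genes, and 33 listed ciliary genes had a peak. Requiring at least 2 peaks gave 9.09% of motile genes, 6.06% of the others and 12 listed genes. Requiring a peak within 1 kb gave 9.09%, 24.2% and 27 genes. Motile genes were also at 9.09% with a peak within 10 kb and, chosen after seeing the data, with a peak at any annotated TSS. Without Cep genes, the other families had 21.4% of genes with a peak, 28.6% of peaks within 1 kb and 71.4% multi-copy peaks. With words of 75 bases, multi-copy shares were 30% (motile) and 17.2% (others). Over the whole peak, 24.1% of the other peaks held GTTGCC. Adding older symbols gave 46 member peaks, among them 3 of Cdc42 effector genes. Also chosen after seeing the data was 1 peak per gene, which gave 28.6% of motile and 66.7% of other peaks within 1 kb.

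No paired analysis was possible because 1 list combines both replicates, and for the same reason leaving out a replicate was not run. A stricter caller threshold was not run, since the list holds no score, nor was soft-masked repeat sequence, since the genome used is all in upper case. Depth is unknown, and ciliary genes just short of a call are not known.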

Other observations

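The list named transcriptional regulators of ciliated cells had the highest share of genes with a peak. Of 12 genes, 8 had a peak (66.7%, interval 39.1 to 86.2%) and 6 had one within 1 kb (50.0%, interval 25.4 to 74.6%), beside 37.5% and 23.2% of all protein-coding genes. The list and the comparison were chosen with earlier results of these data known, and no test was made. Ccno is a cyclin gene, and Rfx5 and Rfx7 are not established regulators of ciliated cells. Rfx7 and Ccno are among the 6 genes with a promoter peak, so the shares describe the list and not the class it names. Rfx1, Rfx4 and Rfx7, factors of the family that binds the X-box, had peaks 242, 934 and 50 bp from the TSS. Rfx3, of the same family, had no peak closer than 231068 bp, and Rfx2, Rfx5, Foxj1 (the main regulator of motile cilia) and Noto had no listed peak. Mcidas and Ccno, neighbouring genes that drive the formation of multiple cilia, had their closest peaks 117 and 95 bp from the TSS, at chr13:113783735-113784652 and chr13:113777587-113778623. Myb, which acts in the same cells and also in blood progenitors, had one at 39 bp. All 6 promoter peaks were single-copy, and the other genes of the list with a peak had none that was.

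In the list of left-right axis genes, 5 of 12 had a peak (41.7%, interval 19.3 to 68.0%) and 2 had one within 1 kb (16.7%, interval 4.70 to 44.8%), near the 37.5% and 23.2% of all genes. Pkd2, a cation channel of nodal cilia, had its peak 393 bp from the TSS.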
